A study of Mus musculus with 51 samples.

Results

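The measurement described here is the change, between day 2 and day 4 of fat cell differentiation, in the difference that a Pparg guide made to the messenger RNA of cultured mouse cells. It was taken as P minus EV on day 4, less P minus EV on day 2, for every gene, where P is the Pparg guide and EV the empty vector. All libraries of these 4 groups entered, 24 of the 51 libraries of the series, and the experiment number in the labels was kept as a block. Both day 4 groups and both day 2 groups held 6 libraries each, from the same 6 experiments.

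The cells were C3H/10T1/2-SAM, a mouse mesenchymal line that carries a dead Cas9 joined to VP64 together with an MS2-P65-HSF1 fusion. P cells received plasmid with a guide RNA for Pparg and EV cells received the plasmid without it, at 250 ng of DNA per transfection. Per the labels, rosiglitazone at 5 µM was given 48 hours later, on day 0, so the drug was present in the EV cells too. All 4 groups therefore share the cell line, the activation proteins and the drug, and differ in guide and day. RNA was read as total RNA after removal of ribosomal RNA, in bulk, so more cells of a type and more RNA per cell cannot be told apart. The labels do not say whether the line is a single clone, and the plasmid was delivered before differentiation began.

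PPARG is the nuclear receptor that starts and maintains the fat cell programme. It pairs with RXR on DNA and is switched on by fatty acid ligands or by thiazolidinediones such as rosiglitazone. Its early targets include C/EBPA and proteins that carry and store fatty acids, while enzymes that make new fat and the expansion of mitochondria belong to later stages of fat cell maturation. Dead Cas9 cannot cut DNA, and in this system it brings activation domains to the gene that the guide matches.

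Total counts ran from 9.99 M to 71.1 M, with a median of 22.4 M. All 8 mesenchymal and fibroblast markers were present in every library, the scarcest being Thy1 at 11.8 to 54.2 CPM (counts scaled to the effective library size). In a principal component analysis, experiment accounted for 56.3% of component 1, which carried 34.3% of the variance, and transfection for 62% of component 2, which carried 20.3%.

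No gene passed the test for a change of the guide's effect between the days. Of 15757 genes tested with edgeR's quasi-likelihood test, 0 were called higher (0%) and 0 lower (0%) at a Benjamini-Hochberg adjusted p under 0.05, and no gene had an adjusted p below 0.999. An unadjusted p under 0.05 was found for 485 genes, which is 3.08% of those tested, with 327 higher (2.08%) and 158 lower (1%). DESeq2 likewise called 0 genes, with 500 under an unadjusted 0.05. The count of 0 depends on the filter on low counts: with every gene that had any count kept, edgeR called 160 genes, 119 higher and 41 lower, among them Fasn, Scd1, Lrig1 and Slc38a4. In that fit edgeR's estimate of the prior degrees of freedom was infinite, which gives every gene the spread of its expression level, against 5.08 with the filter, which keeps part of each gene's own spread. With the filter and the single block, none of the changes given below passed in the fit of all 24 libraries, and unadjusted p-values from edgeR are given beside estimates as measures of size against spread.

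The effect itself was present on both days. On day 4, 2127 genes passed between P and EV (13.5%), 1590 of them higher in P (10.1%) and 537 lower (3.41%). On day 2, 1476 genes passed (9.37%), 992 higher in P (6.3%) and 484 lower (3.07%). Both days shared 1052 of these genes, which is 49.5% of the day 4 calls and 71.3% of the day 2 calls, and all 1052 had the same sign on both days. Experiment 5 weighed most on these counts: without it 1177 genes passed on day 4 and 637 on day 2. On day 4 the count was 1377 without experiment 2 and 1370 without EV day 4 replicate 5. On day 2 it was 707 without experiment 6, 842 without P day 2 replicate 5, 930 without P day 2 replicate 6 and 872 without EV day 2 replicate 5. With no block 933 genes passed on day 4 and 471 on day 2, and with experiment and day as the block 3795 passed on day 4 and 2764 on day 2. The 1075 genes that passed on day 4 and not on day 2 are not thereby shown to have changed, since 0 of them passed the test of the change itself, and 1049 of them already had the same sign on day 2. The reverse set of 424 genes, called on day 2 alone, also held 0 genes that passed the change, and 409 of them kept their sign on day 4.

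How large a change could have been missed differs by gene. The 95% interval of the change lay inside 2-fold in both directions for 12015 genes (76.3%), and for 1891 of the 2551 genes called on either day (74.1%). For the others a change past 2-fold lies within the interval. The estimate itself was beyond 2-fold for 306 genes.

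**Figure D1:**
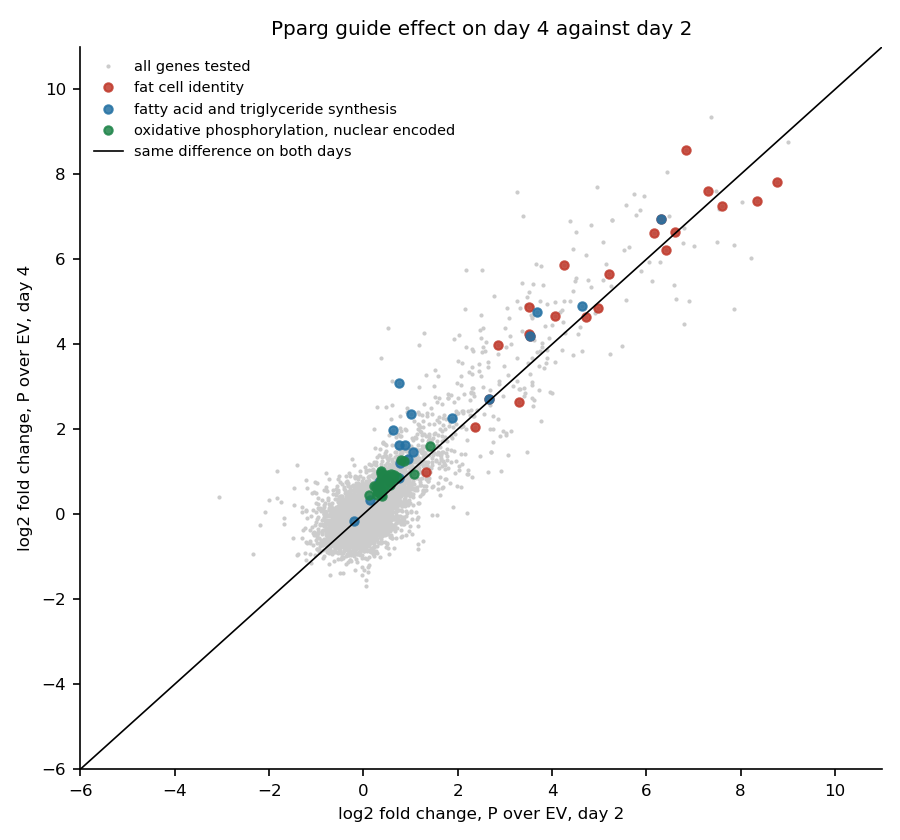
Log2 fold change of P over EV on day 4 (vertical axis) against day 2 (horizontal axis) for the 15757 genes tested, with 3 gene lists in colour and the line of equal differences. Fat cell identity genes lie far up the line on both days, most lipid synthesis genes lie above it, and the oxidative phosphorylation genes form a small group just above it.

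Pparg (ENSMUSG00000000440, chr6:115360951-115490399 on GRCm38, plus strand) was the gene the guide was aimed at. On day 4 it ran from 204 to 381 CPM in P cells (median 214), against 42.1 to 76.8 CPM in EV cells (median 55.6). On day 2 it ran from 185 to 504.5 CPM in P (median 283), against 41.98 to 70.6 CPM in EV cells (median 57.1). P and EV did not overlap on either day, and within EV the level moved by 0.02 on the log2 scale between the days. The P over EV fold was 4.16 on day 4 (adjusted p = 2.88e-06) and 5.19 on day 2 (adjusted p = 1.25e-06). The log2 change of the effect was -0.32 ± 0.31 (SE), a ratio of folds of 0.803 with a 95% interval of 0.515 to 1.25. It was lower on day 4 in 5 of 6 experiments, and the exact two-sided sign-flip permutation test over the 6 experiments gave p = 0.125, where the smallest possible is 0.03125.

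**Figure D2:**
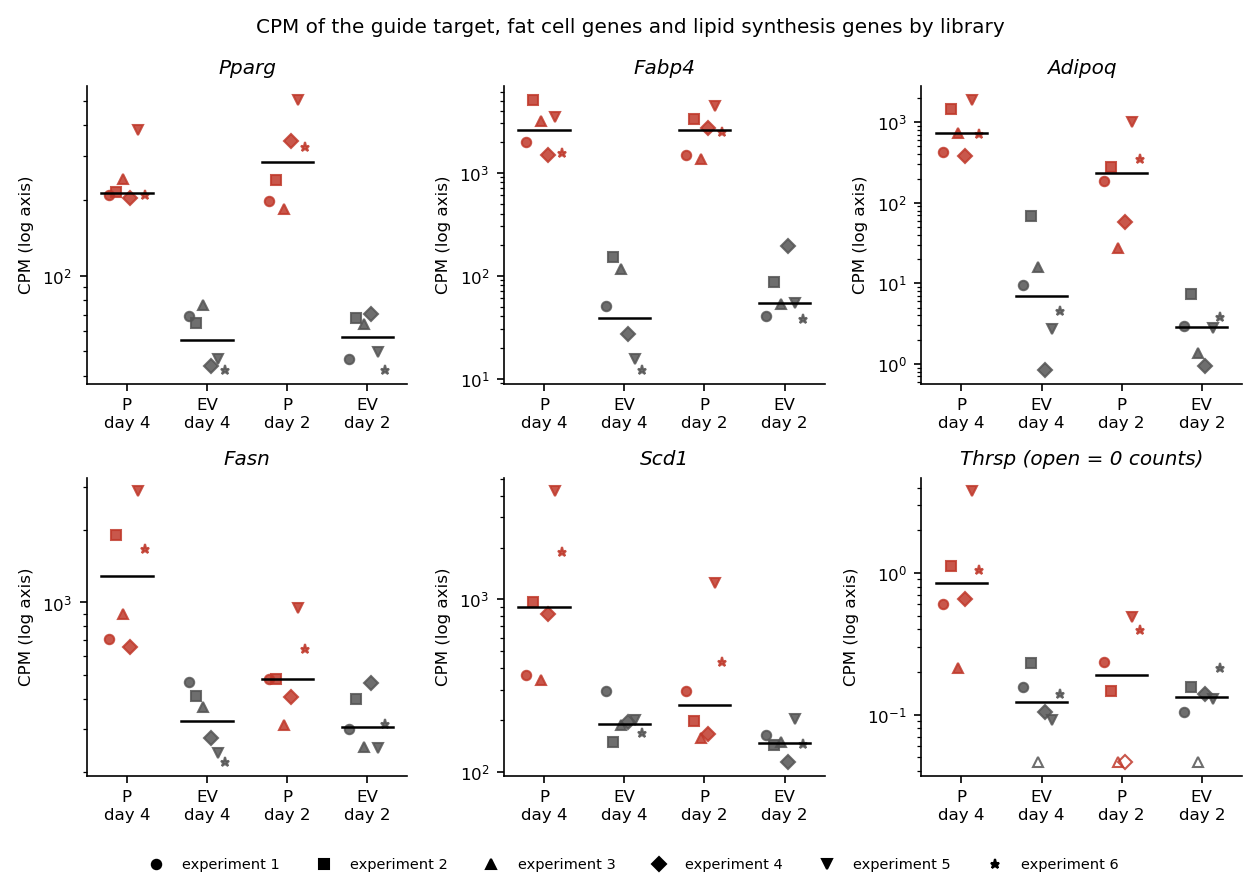
CPM (log axis) of 6 genes in each library, by group and experiment, with a bar at the group's median. Pparg, Fabp4 and Adipoq separate P from EV on both days, while Fasn and Scd1 separate on day 4 and overlap on day 2, and Thrsp overlaps on both days.

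Genes that mark the fat cell state stood far above EV in P on both days, and the change in fold varied in sign and size among them. All 23 tested members of the fat cell identity list were called higher in P on day 4 and all 23 on day 2. The shares over all genes tested were 10.1% and 6.3%. For the change, 0 of 23 passed. The median log2 change over the list was 0.19, with 14 members positive and 9 negative, from -0.97 (Plin1) to 1.72 (Cfd). Over all genes tested it was 0.02, with 53.8% positive. Fabp4, a cytosolic carrier of fatty acids, ran from 1480 to 5111 CPM in P on day 4 (median 2567), against 12 to 150.5 CPM in EV (median 38.8). The day 2 libraries spanned 1350 to 4405 CPM in P (median 2592), against 37.6 to 195 CPM in EV (median 53.6). P lay above EV without overlap on both days, with folds of 50.2 on day 4 and 37.0 on day 2. The log2 change of 0.44 ± 0.67 (unadjusted p = 0.522) turned negative without experiment 4 and without EV day 2 replicate 4 alone (-0.13).

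Adipoq encodes the secreted hormone adiponectin, and its level was higher on day 4 in both arms. It ran from 380 to 1914 CPM in P on day 4 (median 730), against 0.83 to 68.7 CPM in EV (median 7.004). Day 2 values were 27.4 to 1019 CPM in P (median 235), against 0.932 to 7.47 CPM in EV (median 2.87). The log2 difference between day 4 and day 2 was 1.84 within P and 2.02 within EV. Its folds of 74.9 on day 4 and 85.3 on day 2 gave a log2 change of -0.19 ± 0.87, whose sign is not fixed: it was positive under 4 other ways of handling the experiments.

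Cebpa, the transcription factor that works beside PPARG, had a negative change that did not pass. It ran from 25.4 to 99.1 CPM in P on day 4 (median 51.7), against 5.81 to 12.1 CPM in EV (median 8.56). At day 2 the range was 12.5 to 76.8 CPM in P (median 38.9), against 0.792 to 6.58 CPM in EV (median 3.91). Its folds were 6.21 on day 4 and 9.85 on day 2, a log2 change of -0.66 ± 0.37 (unadjusted p = 0.088), lower in 5 of 6 experiments. P and EV did not overlap on either day, and the level was higher on day 4 in both arms, by log2 0.55 within P and 1.21 within EV.

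Lipid droplet genes had large folds with wide intervals. Plin1, which coats the droplet and gates lipolysis, had folds of 166 on day 4 and 325 on day 2, and a log2 change of -0.97 ± 0.87. Cidec, which fuses droplets, had folds of 225 on day 4 and 439 on day 2, and a log2 change of -0.96 ± 0.96. In EV these genes were scarce on both days. Plin1 ran from 0.208 to 17.6 CPM in EV on day 4 and from 0.0853 to 1.83 CPM on day 2. Cidec ran from 0.26 to 15.0 CPM in EV on day 4 and from 0.171 to 1.45 CPM on day 2. The highest EV value of day 4 came from replicate 2 for both genes. Without that library the log2 change was 0.60 for Plin1 and 0.61 for Cidec. On the scale of CPM plus 0.5, it was positive in 3 of 6 experiments for Plin1 and in 4 of 6 for Cidec. Their P levels stayed far above, at 168 to 812.5 CPM for Plin1 on day 4 and 81.9 to 689 CPM on day 2, and at 121.5 to 1057 CPM for Cidec on day 4 and 35.4 to 884 CPM on day 2. Lipe, the hormone-sensitive lipase, had nearly equal folds of 24.8 on day 4 and 26.5 on day 2, with a ratio of 0.939 and a 95% interval of 0.467 to 1.89. Cd36, which takes up fatty acids, had folds of 100.5 on day 4 and 97.2 on day 2, with a ratio of 1.03 and a 95% interval of 0.286 to 3.73.

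Adipsin and resistin, products of maturing fat cells, had higher medians in P on day 4 than on day 2, with few counts in EV. Cfd (adipsin) ran from 26.1 to 469 CPM in P on day 4 (median 132.5), against 0.0519 to 1.78 CPM in EV (median 0.291). In day 2 libraries it lay between 0.549 and 29.3 CPM in P (median 6.02), against 0 to 0.18 CPM in EV (median 0.0606), where no EV library held more than 6 counts. With EV so close to 0 on day 2, the log2 change of 1.72 ± 1.73 has a 95% interval from -1.88 to 5.32. On the scale of CPM plus 0.5, the change of Cfd was positive in 6 of 6 experiments, from 1.99 to 6.02. Retn (resistin) ran from 0.0714 to 13.8 CPM in P on day 4 (median 1.28), against 0 to 0.305 CPM in EV. P cells of day 2 held 0.104 to 0.77 CPM, against 0 to 0.104 CPM in EV, where at most 2 counts were seen in a library and no fold is given. In experiment 3 the P library of day 4 held 0.0714 CPM of Retn, against 0.11 CPM on day 2. Within EV the fitted log2 difference between day 4 and day 2 was 2.61 for Cfd and 2.16 for Retn, from these few counts, against 4.33 and 3.52 within P. Nr1h3, the sterol-sensing receptor LXR alpha, was the list member with the smallest unadjusted p. Its folds were 15.9 on day 4 and 7.26 on day 2, a log2 change of 1.13 ± 0.48 (unadjusted p = 0.0281), higher in 6 of 6 experiments.

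The genes listed as PPAR targets went in both directions and showed no common change. Of 23 tested members, 0 passed, 14 were positive and 9 negative, against 53.8% positive over all genes tested. The list's median log2 change was 0.13. On day 4, 15 members were called higher in P, and on day 2, 18, against 10.1% and 6.3% of all genes tested. By experiment the list's median was 1.03 and 1.22 in experiments 2 and 3, and 0.08 and 0.07 in experiments 1 and 4. It was -0.35 and -0.26 in experiments 5 and 6. Angptl4, a secreted inhibitor of lipoprotein lipase, ran from 108.5 to 865 CPM in P on day 4 (median 363.5), against 25.9 to 491 CPM in EV (median 167). On day 2 it ran from 351 to 772.5 CPM in P (median 606), against 93.9 to 332 CPM in EV (median 171). The ranges of P and EV overlapped on day 4 and did not on day 2, while within experiments P lay above EV in 6 of 6 on both days. Its folds were 2.14 on day 4 (adjusted p = 0.0749) and 3.49 on day 2 (adjusted p = 0.0063), a log2 change of -0.71 ± 0.55, lower in 5 of 6 experiments. Pdk4, the kinase that shuts off pyruvate dehydrogenase, had folds of 1.67 on day 4 and 1.32 on day 2, neither of which passed, and a log2 change of 0.34 ± 0.42.

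Among PPAR targets under an unadjusted p of 0.05, named after their values were seen, 3 of 23 were higher and 1 lower. The shares over all genes tested were 2.08% and 1%. Ehhadh, the peroxisomal bifunctional enzyme, had folds with log2 values of 3.94 on day 4 and 2.17 on day 2 (change 1.77, unadjusted p = 0.00977). Slc27a1, a fatty acid transport protein, ran from 8.06 to 27.8 CPM in P on day 4 (median 17.8), against 8.04 to 12.1 CPM in EV (median 9.26). The day 2 libraries spanned 5.57 to 11.2 CPM in P (median 7.47), against 6.16 to 11.4 CPM in EV (median 8.75). The groups overlapped on both days, and the log2 change was 1.03 ± 0.30 (unadjusted p = 0.00284). Fabp5, another fatty acid carrier, had folds of 6.67 on day 4 and 3.46 on day 2 (unadjusted p = 0.0437). Hp, the haemoglobin-binding plasma protein haptoglobin, was the lower one, with folds of 1.57 on day 4 and 3.96 on day 2 (unadjusted p = 0.0139), though only 4 of 6 experiments were lower.

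Genes for making fatty acids and triglycerides were the list with the largest median. All 21 tested members of fatty acid and triglyceride synthesis had a positive change, against 53.8% of all genes tested. Their median log2 change was 0.40, and 0 of 21 passed. On day 4, 20 of 21 were called higher in P, and on day 2, 13, against 10.1% and 6.3% of all genes tested. The list's median log2 difference between P and EV was 1.62 on day 4 and 0.77 on day 2. Unadjusted p-values under 0.05 were seen for 7 of 21 members, all higher, against 2.08% of all genes tested that were higher at that threshold. The 7 were Fasn, Scd1, Thrsp, Acacb, Acaca, Slc25a1 and Gpam. The list and its members share samples and were chosen with earlier results of these data known, so the count describes these libraries only. The promoters of 3 of these 7 genes, Fasn, Thrsp and Slc25a1, are shown as examples of the sequence that was searched for motifs. They are printed as the 250 bases before the RefSeq start on GRCm38.p6, minus strand, 5′ to 3′, with matches to CCAAT and CACGTG on either strand in capitals.
Fasn, chr11:120824548-120824797: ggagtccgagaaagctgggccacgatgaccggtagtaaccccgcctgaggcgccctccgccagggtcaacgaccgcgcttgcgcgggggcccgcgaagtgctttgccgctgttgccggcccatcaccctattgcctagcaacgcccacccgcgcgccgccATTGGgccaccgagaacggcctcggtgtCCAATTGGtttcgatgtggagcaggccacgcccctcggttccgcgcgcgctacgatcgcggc
Thrsp, chr7:97417551-97417800: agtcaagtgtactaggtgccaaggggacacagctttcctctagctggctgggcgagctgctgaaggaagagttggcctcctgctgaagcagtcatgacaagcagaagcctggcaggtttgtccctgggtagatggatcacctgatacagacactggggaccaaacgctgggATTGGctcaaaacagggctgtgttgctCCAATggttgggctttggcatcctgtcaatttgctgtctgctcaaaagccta
Slc25a1, chr16:17928220-17928469: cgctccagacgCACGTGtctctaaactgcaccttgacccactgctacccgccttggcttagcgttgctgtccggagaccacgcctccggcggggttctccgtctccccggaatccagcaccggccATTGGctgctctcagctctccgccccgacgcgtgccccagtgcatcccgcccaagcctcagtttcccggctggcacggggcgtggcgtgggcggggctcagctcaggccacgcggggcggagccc

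The RefSeq promoter set used here gave 21 promoters for 16 of the 22 listed genes, the others being Scd1, Scd2, Dgat1, Dgat2, Mogat2 and Gpd1. CCAAT, read on both strands, was present in 10 of these 21 (47.6%), against 33.8% of all 32851 promoters of the same length. The E-box CACGTG was in 3 of 21 (14.3%), against 6.02% of all. The sterol response element TCACNCCAC was in 1 of 21 (4.76%), against 1.05% of all, and the PPAR response element, a direct repeat of AGGTCA with 1 base between, in 0 of 21, against 0.0335% of all. Fasn holds 3 CCAAT matches, of which a pair overlaps on opposite strands, Thrsp holds 2, and Slc25a1 holds 1 beside its E-box. These are matches of letters and say nothing of binding.

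Fasn (ENSMUSG00000025153, chr11:120805846-120824547 on GRCm38, minus strand) encodes fatty acid synthase, which builds palmitate. It ran from 655 to 2874 CPM in P on day 4 (median 1283), against 219 to 470 CPM in EV (median 323). Day 2 values were 312 to 953 CPM in P (median 482), against 250 to 466 CPM in EV (median 307.5). P stood above EV without overlap on day 4, and the groups overlapped on day 2. The fold was 3.95 on day 4 (adjusted p = 0.000228) and 1.55 on day 2 (adjusted p = 0.229). Its log2 change was 1.35 ± 0.43 (unadjusted p = 0.00546), a ratio of folds of 2.54 with a 95% interval of 1.36 to 4.75. Between the days the level was higher on day 4 by log2 1.36 within P and by 0.01 within EV. By experiment the change ran from -0.10 in experiment 1 to 1.94 in experiment 2, with 5 of 6 positive.

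Scd1, which places the double bond that turns stearate into oleate, followed Fasn closely. It ran from 339 to 4238 CPM in P on day 4 (median 900), against 149 to 295 CPM in EV (median 190). At day 2 the range was 158 to 1244 CPM in P (median 245), against 113.5 to 202 CPM in EV (median 147). P lay above EV on day 4 and overlapped it on day 2. The folds were 5.13 on day 4 and 2.01 on day 2, and the log2 change was 1.35 ± 0.53 (unadjusted p = 0.0197), with experiment 1 again the only negative one at -0.54. Thrsp (Spot 14), a regulator of lipid synthesis, was near the floor of detection, with at most 8 counts in an EV library of day 2. It ran from 0.214 to 3.76 CPM in P on day 4 (median 0.853), against 0 to 0.23 CPM in EV. In day 2 libraries it lay between 0 and 0.487 CPM in P (median 0.191), against 0 to 0.213 CPM in EV. The groups overlapped on both days. The log2 change was 2.34 ± 0.73 (unadjusted p = 0.00438), positive in 6 of 6 experiments.

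The other 4 members were at moderate levels with smaller changes. Acacb, the acetyl-CoA carboxylase of the mitochondrial surface, had folds of 3.08 on day 4 and 1.69 on day 2 (log2 change 0.87, unadjusted p = 0.0125). Acaca, the cytosolic acetyl-CoA carboxylase that feeds fatty acid synthase, had a log2 change of 0.44 (unadjusted p = 0.0424). Slc25a1, the carrier that exports citrate from mitochondria, ran from 172 to 505 CPM in P on day 4, against 71.0 to 129 CPM in EV. P cells of day 2 held 86.5 to 335 CPM, against 68.5 to 96.7 CPM in EV, and its log2 change was 0.74 (unadjusted p = 0.0433). Gpam, which starts triglyceride assembly on mitochondria, had a log2 change of 0.38 (unadjusted p = 0.0199). Elsewhere in the list, Dgat2 and Elovl6 had changes of 0.04 each, and Srebf1, the lipogenic transcription factor, 0.33 (unadjusted p = 0.243).

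Cholesterol synthesis genes, under the related factor SREBF2, had 22 of 23 positive, against 53.8% of all genes tested, and a median log2 change of 0.33. Of the 23, 0 passed and 0 were under an unadjusted 0.05. On day 4, 13 were called higher in P, and on day 2, 1, against 10.1% and 6.3% of all genes tested. The list's median log2 difference between P and EV was 0.72 on day 4 and 0.36 on day 2. The largest was Insig1, which holds back SREBP processing, at 0.63 (unadjusted p = 0.0765). By experiment the list's median ran from -0.26 in experiment 1 to 1.03 in experiment 2.

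Mitochondrial genes had small positive changes that most members shared. In nuclear-encoded oxidative phosphorylation 44 of 45 tested members were positive, with a median log2 change of 0.29 (1.22-fold), 0 passing, and 6 under an unadjusted 0.05. The shares over all genes tested were 53.8% positive and 3.08% under an unadjusted 0.05. On day 4, 43 of 45 were called higher in P, and on day 2, 20, against 10.1% and 6.3% of all genes tested. The list's median log2 difference between P and EV was 0.77 on day 4 and 0.42 on day 2. Cox4i1, a subunit of cytochrome c oxidase, ran from 247 to 525.5 CPM in P on day 4 (median 352), against 129 to 233.5 CPM in EV (median 167). On day 2 it ran from 156 to 423 CPM in P (median 214), against 148 to 201 CPM in EV (median 182). P stood above EV on day 4 and overlapped it on day 2. Its fold was 1.96 on day 4 and 1.303 on day 2, a log2 change of 0.59 ± 0.21 (unadjusted p = 0.0106), positive in 6 of 6 experiments. The other members under that threshold were Uqcrq of complex III (0.64), Ndufv1 (0.51), Ndufa1 (0.44) and Ndufa9 (0.42) of complex I, and Sdha of complex II (0.37). The exception in sign was Cox7a1, an isoform of muscle and brown fat, at -0.13.

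Pyruvate and TCA cycle genes were positive for 22 of 24, with a median of 0.34 and 0 passing. The shares over all genes tested were 53.8% positive and 3.08% under an unadjusted 0.05. Sucla2 and Fh1, which encode a subunit of succinyl-CoA synthetase and fumarase, had changes of 0.42 (unadjusted p = 0.0171) and 0.43 (unadjusted p = 0.0244). Branched-chain amino acid breakdown, a source of carbon for fat synthesis in fat cells, was positive for 18 of 19, with a median of 0.25, and 5 members were under an unadjusted 0.05. Bckdha, a subunit of the dehydrogenase that commits these amino acids to breakdown, ran from 20.2 to 52.0 CPM in P on day 4 (median 26.2), against 13.5 to 16.7 CPM in EV (median 14.4). The day 2 libraries spanned 7.62 to 27.1 CPM in P (median 12.04), against 6.76 to 13.4 CPM in EV (median 11.1). The groups overlapped on day 2 alone. Its log2 change was 0.56 ± 0.24 (unadjusted p = 0.0297), and those of Bcat2, Mccc1, Dbt and Auh were 0.54, 0.46, 0.39 and 0.23. All 25 tested genes of the mitochondrial ribosome and protein import were positive by small amounts, with a median of 0.14 and 0 under an unadjusted 0.05. Mitochondrial fatty acid oxidation was more mixed, with 16 of 24 positive and a median of 0.09.

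These list medians came from some experiments more than others. For oxidative phosphorylation the median change was 0.80 in experiment 2 and 0.64 in experiment 3, but 0.02 in experiment 4 and -0.06 in experiment 6. For the TCA list it was 0.94 and 0.78 in experiments 2 and 3, against -0.02 and -0.05 in experiments 4 and 6. For mitochondrial fatty acid oxidation it was 0.70 and 0.91 in experiments 2 and 3. In experiments 1, 4, 5 and 6 it was 0.16, -0.255, -0.04 and -0.405. For fatty acid and triglyceride synthesis all 6 medians were above 0, from 0.05 in experiment 1 to 0.83 in experiment 2. Experiments 2 and 3 were also those with the highest Ppargc1a in every group, and its part in these medians was not tested.

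**Figure D3:**
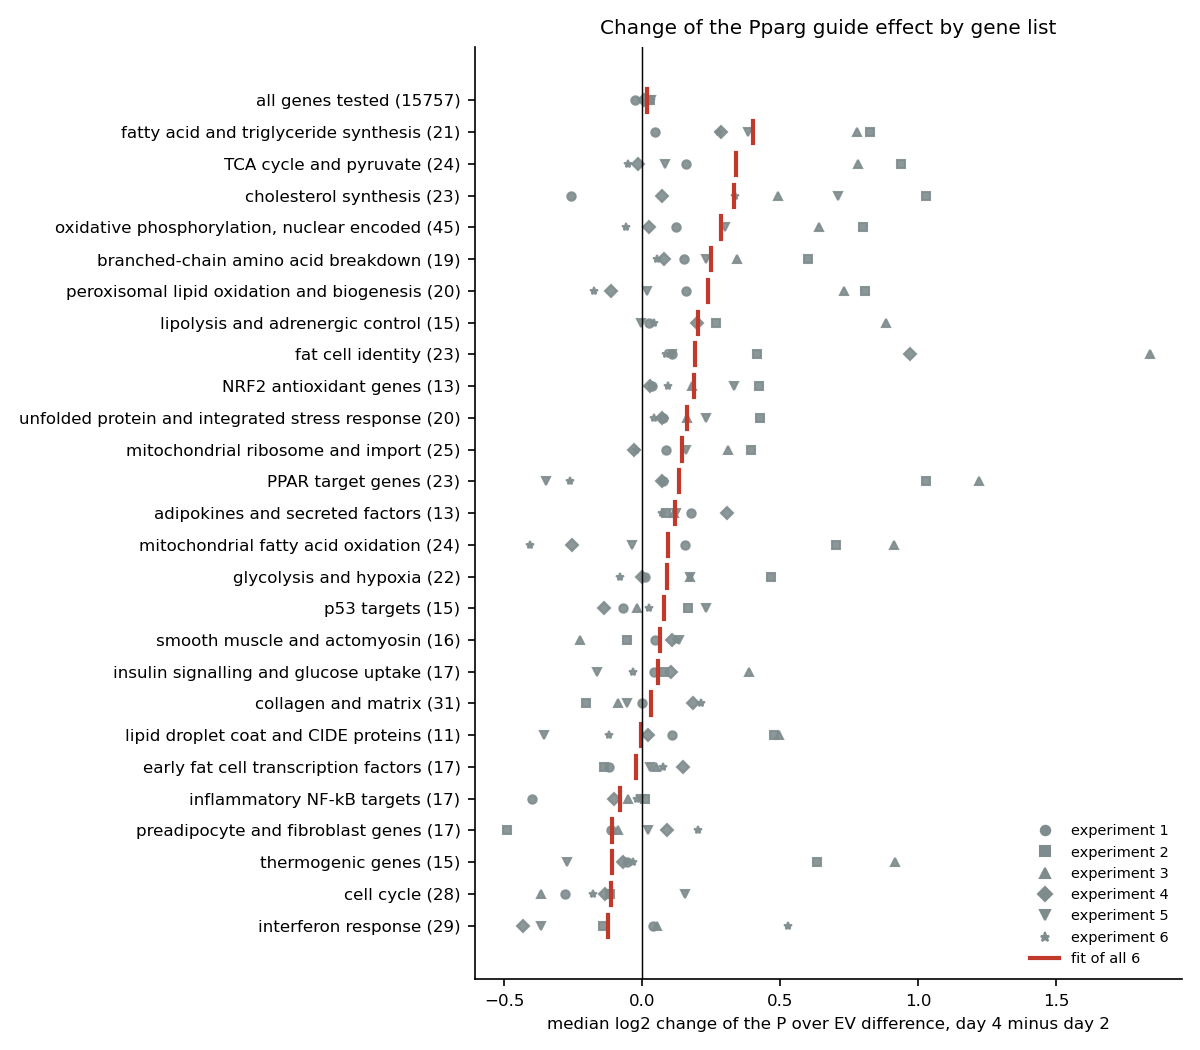
Median log2 change of the P over EV difference, day 4 minus day 2, over the tested members of each gene list (number in brackets), as 6 experiments (grey, from CPM plus 0.5) and as the fit of all 6 (red). Fatty acid and triglyceride synthesis lies above 0 in all 6 experiments with a fitted median of 0.40, and the medians of the mitochondrial lists are largest in experiments 2 and 3.

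Thermogenic genes had no common direction, with 6 of 15 tested members positive, against 53.8% of all genes tested. Their median log2 change was -0.11, and 0 passed. Ppargc1a, the coactivator that drives mitochondrial and thermogenic genes, had the smallest unadjusted p. It ran from 0.346 to 39.8 CPM in P on day 4 (median 1.71), against 0.323 to 38.9 CPM in EV (median 1.61). Day 2 values were 0.25 to 12.7 CPM in P (median 0.922), against 0 to 7.001 CPM in EV (median 0.339). The groups overlapped on both days, and experiments 2 and 3 were the highest in every group. Within experiments P lay above EV in 5 of 6 on day 4 and in 6 of 6 on day 2. Its fold was 1.04 on day 4 (adjusted p = 0.91, and below 1 when scaled to total counts) and 2.02 on day 2 (adjusted p = 0.017). The log2 change was -0.96 ± 0.34 (unadjusted p = 0.0107), negative in 6 of 6 experiments, and the level was higher on day 4 by log2 1.28 within P and by 2.24 within EV.

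The other thermogenic genes were scarce. Cox8b, a brown fat subunit of cytochrome c oxidase, ran from 2.87 to 14.2 CPM in P on day 4 (median 5.50), against 0 to 0.919 CPM in EV (median 0.122). At day 2 the range was 0 to 4.502 CPM in P (median 0.948), and all 6 EV libraries were at 0 counts, so no fold is given. On the scale of CPM plus 0.5, the change was positive in 6 of 6 experiments, from 1.27 to 2.48. Prdm16, a determinant of brown fat identity, had medians of 1.29 CPM in P and 0.0768 CPM in EV on day 4, and of 0.636 CPM in P and 0.0687 CPM in EV on day 2. Its log2 change was -0.63 ± 0.91, though 5 of 6 experiments were positive on the scale of CPM plus 0.5. Cidea, a brown fat droplet protein, did not pass the filter on low counts, with at most 0.648 CPM in P and 0.102 CPM in EV on day 4, and 0.203 CPM in P and 0.0522 CPM in EV on day 2. Ucp1, the uncoupling protein that defines brown fat heat production, was at 0 counts in all 6 P libraries of day 4, with at most 2 counts in an EV library of day 4, 1 in a P library of day 2 and 5 in an EV library of day 2. Ppara, the related receptor of fatty acid oxidation, ran from 0.697 to 13.6 CPM in P on day 4, against 0 to 0.156 CPM in EV. In day 2 libraries it lay between 0.11 and 3.53 CPM in P, against 0.0522 to 0.256 CPM in EV (unadjusted p = 0.041 for the change).

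Genes with the smallest unadjusted p in the positive direction were mostly scarce in EV, and none passed. They were Itih4, Kcnj14, Tppp, Stx6 and Ccdc144b, each positive in 6 of 6 experiments. The choice took only genes without a provisional name and with at least 5 of 6 experiments of the same sign. Itih4, a heavy chain of the inter-alpha-trypsin inhibitor family secreted into plasma, ran from 1.27 to 16.7 CPM in P on day 4 (median 2.40), against 0 to 0.369 CPM in EV (median 0.255). P cells of day 2 held 0.22 to 3.65 CPM (median 0.69), against 0.157 to 0.808 CPM in EV (median 0.331). P and EV were apart on day 4 and overlapped on day 2. Its log2 change was 2.80 ± 0.63 (unadjusted p = 0.000231), and it passed when EV day 2 replicate 5 was left out (log2 change 3.27, adjusted p = 0.0208). Tppp, which binds and bundles microtubules, had folds of 8.77 on day 4 and 1.52 on day 2. Kcnj14, an inwardly rectifying potassium channel, had folds of 12.8 on day 4 and 1.29 on day 2, with at most 5 counts in an EV library of day 4. Ccdc144b had a median of 2.06 CPM in P on day 4, against at most 1 count in any EV library of that day. Its day 2 median was 0.558 CPM in P and 0.0393 CPM in EV.

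Stx6 was the best expressed gene among these 5, and its change was small. This syntaxin of the trans-Golgi network ran from 53.3 to 75.9 CPM in P on day 4 (median 68.1), against 47.3 to 70.4 CPM in EV (median 61.1). On day 2 it ran from 41.2 to 70.8 CPM in P (median 59.0), against 51.1 to 73.9 CPM in EV (median 68.0). The groups overlapped on both days, the folds were 1.11 on day 4 and 0.869 on day 2, and the log2 change was 0.35 ± 0.09 (unadjusted p = 0.000523).

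In the negative direction the 5 genes, chosen in the same way, were Krt8, Wdr60, Trpm1, Slc38a4 and Zfp827. Krt8, a keratin of simple epithelia, ran from 0 to 1.16 CPM in P on day 4 (median 0.122), against 0 to 0.623 CPM in EV (median 0.179). The day 2 libraries spanned 0 to 4.95 CPM in P (median 1.02), against 0 to 1.26 CPM in EV (median 0.192). The groups overlapped on both days, and the log2 change was -2.17 ± 0.57 (unadjusted p = 0.00104). Summed over the 10 epithelial markers, the level was 0.994 to 5.11 CPM in P on day 4, 1.25 to 6.09 CPM in EV on day 4, 1.1 to 8.31 CPM in P on day 2 and 1.72 to 4.75 CPM in EV on day 2. Of these markers 5 never reached 10 counts in a library, and Epcam had at most 3. Their part in the result was not tested.

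Slc38a4, an amino acid transporter from an imprinted locus, was the most even of the negative genes across experiments. It ran from 1.87 to 6.003 CPM in P on day 4 (median 2.59), against 1.66 to 6.21 CPM in EV (median 2.61). Day 2 values were 5.78 to 26.7 CPM in P (median 6.68), against 2.18 to 4.15 CPM in EV (median 3.45). P lay above EV without overlap on day 2 and overlapped it on day 4. Its fold was 0.984 on day 4 and 2.75 on day 2 (adjusted p = 0.00283), a log2 change of -1.48 ± 0.42 (unadjusted p = 0.0021). By experiment the change lay between -1.28 and -0.94.

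Wdr60, an intermediate chain of the dynein that moves cargo in cilia, also had its difference on day 2. It ran from 34.4 to 43.0 CPM in P on day 4 (median 38.2), against 25.4 to 36.0 CPM in EV (median 30.1). At day 2 the range was 37.8 to 63.4 CPM in P (median 52.1), against 22.0 to 31.3 CPM in EV (median 27.8). P and EV did not overlap on day 2. The folds were 1.26 on day 4 and 1.95 on day 2, with a log2 change of -0.63 ± 0.17. Zfp827, a zinc finger protein, had folds of 0.858 on day 4 and 1.06 on day 2 and a log2 change of -0.31 ± 0.09. Trpm1, a cation channel of retina and pigment cells, stayed under 0.6 CPM in every library, with at most 5 counts in a P library of day 4.

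**Figure D4:**
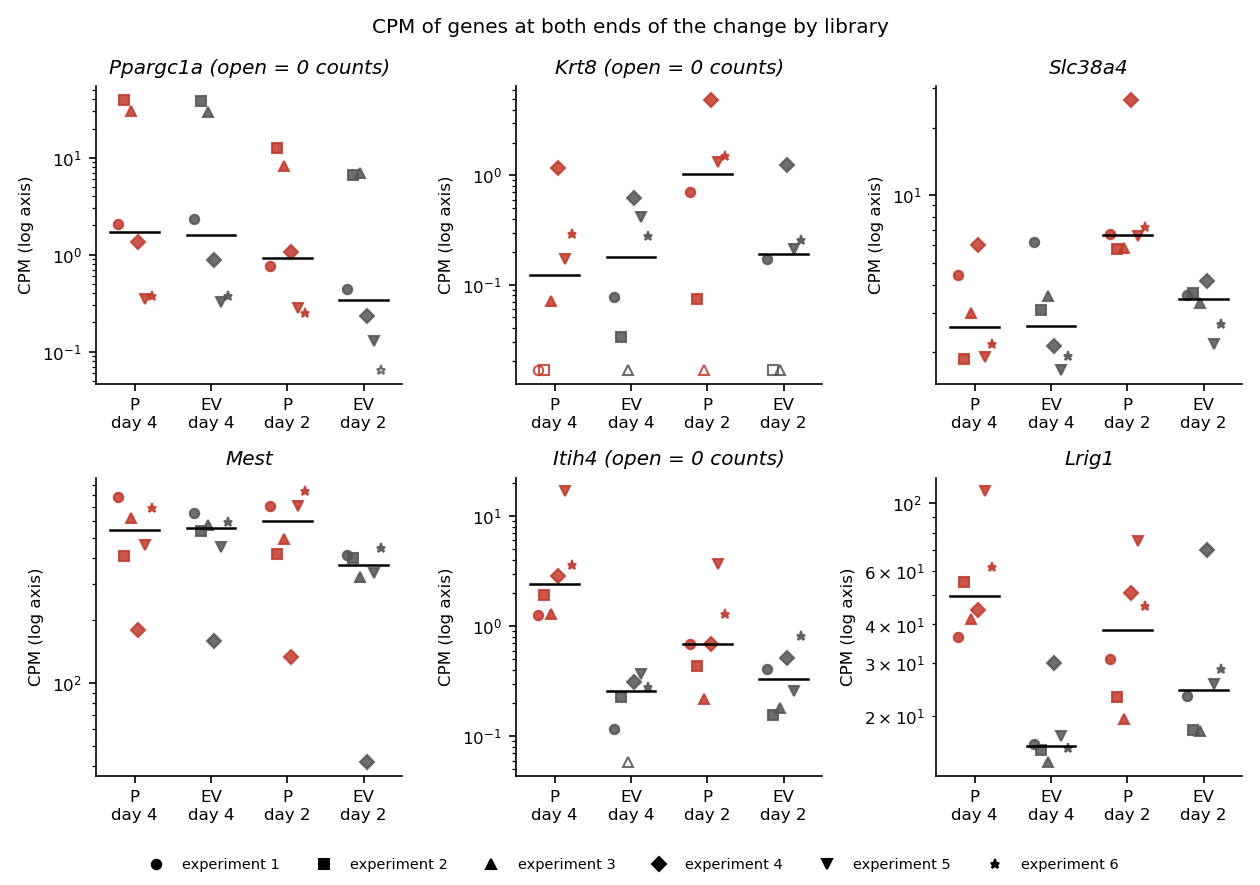
CPM (log axis) of 6 genes in each library, by group and experiment, with a bar at the group's median. Slc38a4 is higher in P than in EV on day 2 and overlaps EV on day 4, Itih4 and Lrig1 separate most on day 4, and Ppargc1a differs between experiments more than between groups.

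A closer pairing was added after the data were seen, since each experiment holds all 4 groups. With experiment and day and also experiment and transfection as blocks, 5 residual degrees of freedom remained and edgeR called 20 genes (0.127%), 15 higher (0.0952%) and 5 lower (0.0317%). An unadjusted p under 0.05 was found for 1589 genes (10.1%) in this fit. The same pairing in limma, on the 6 differences of differences, called 0, with 1175 genes under an unadjusted 0.05 and a smallest adjusted p of 0.66. Without each experiment in turn, edgeR's count ran from 2 (without experiment 5) to 17 (without experiment 1), and all 20 genes kept their sign each time. Lrig1 and Pla2g16 were the only genes called in all 6 of these fits. Itga7, Itih4, Tmem120b, Prps1, Pank3 and Tppp were called in 0 of them, and limma gave Itih4 an unadjusted p of 0.398. With both blocks and all experiments kept, Pparg and Cebpa did not pass in edgeR. Their changes were -0.24 ± 0.10 (unadjusted p = 0.0289, adjusted p = 0.435) and -0.80 ± 0.20 (unadjusted p = 0.00138, adjusted p = 0.17).

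Lrig1 (ENSMUSG00000030029, chr6:94604529-94700158 on GRCm38, minus strand) encodes a membrane protein that restrains growth factor receptors. It ran from 36.4 to 109 CPM in P on day 4 (median 49.7), against 14.1 to 29.8 CPM in EV (median 16.0). In day 2 libraries it lay between 19.5 and 75.0 CPM in P (median 38.5), against 17.95 to 70.3 CPM in EV (median 24.4). P stood above EV without overlap on day 4, and the groups overlapped on day 2. Its log2 change was 1.25 ± 0.34 with the single block (unadjusted p = 0.0015) and 1.17 with both blocks (adjusted p = 0.000416), and lay between 0.75 and 1.45 by experiment. The log2 difference between day 4 and day 2 was 0.58 within P and -0.67 within EV.

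Pla2g16, a phospholipase abundant in fat tissue that damps lipolysis, was already higher in P on day 2. It ran from 81.0 to 315 CPM in P on day 4 (median 143), against 17.1 to 77.0 CPM in EV (median 25.2). P cells of day 2 held 44.7 to 208 CPM (median 82.4), against 16.5 to 37.2 CPM in EV (median 26.9). P lay above EV without overlap on both days, with folds of 5.02 on day 4 and 3.29 on day 2. Its log2 change was 0.61 ± 0.38 with the single block (unadjusted p = 0.124) and 0.75 with both blocks (adjusted p = 0.00405).

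The other 13 genes higher with both blocks had varied roles. Fasn was among them (log2 1.31, adjusted p = 0.0318). So were Pank3, which makes coenzyme A (0.71), Hk2, which commits glucose to glycolysis (0.60), Tst, a mitochondrial sulphur transferase (1.37), Prps1, which makes the sugar phosphate for nucleotides (0.53), and Tmem120b, a nuclear envelope protein (0.74). Tfrc, which brings in iron, ran from 54.4 to 194 CPM in P on day 4 (median 120), against 9.37 to 49.5 CPM in EV (median 26.9). On day 2 it ran from 63.3 to 182 CPM in P (median 102), against 35.4 to 112 CPM in EV (median 40.8), and its change with both blocks was 1.07 (adjusted p = 0.0308). The remaining 6 were Itih4, Tppp, the adhesion protein Mcam, the laminin receptor subunit Itga7, the Wnt inhibitor Apcdd1 and Rgs2, which damps G protein signals. Within EV the level was lower on day 4 than on day 2 for several of the 15 higher genes, by log2 values of -1.47 in Mcam, -1.10 in Hk2, -0.97 in Itih4, -0.93 in Tppp, -0.91 in Tfrc, -0.67 in Lrig1, -0.55 in Prps1 and -0.47 in Itga7. Within P the same difference was -0.43 in Hk2 and -0.02 in Prps1, and above 0 in the other 13.

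The 5 genes lower with both blocks were Slc38a4, Arhgap20, Sema3c, Mest and Wdr60, all of which were higher in P on day 2 and did not pass on day 4. Mest, an imprinted gene tied to fat cell size in mice, ran from 180 to 785 CPM in P on day 4 (median 543), against 159 to 657 CPM in EV (median 557). The day 2 libraries spanned 133 to 834 CPM in P (median 599), against 41.7 to 444 CPM in EV (median 368). Experiment 4 was the lowest in all 4 groups. Its fold was 1.06 on day 4 and 1.76 on day 2 (adjusted p = 0.00587), with a change of -0.78 with both blocks (adjusted p = 0.0318). Arhgap20 had folds of 1.201 on day 4 and 2.28 on day 2, and Sema3c, a secreted guidance cue, 1.16 on day 4 and 1.93 on day 2. In these 3 genes EV was higher on day 4 than on day 2, by log2 0.74 in Mest, 0.86 in Arhgap20 and 0.58 in Sema3c, while P differed by 0.01, -0.07 and -0.16.

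**Figure D5:**
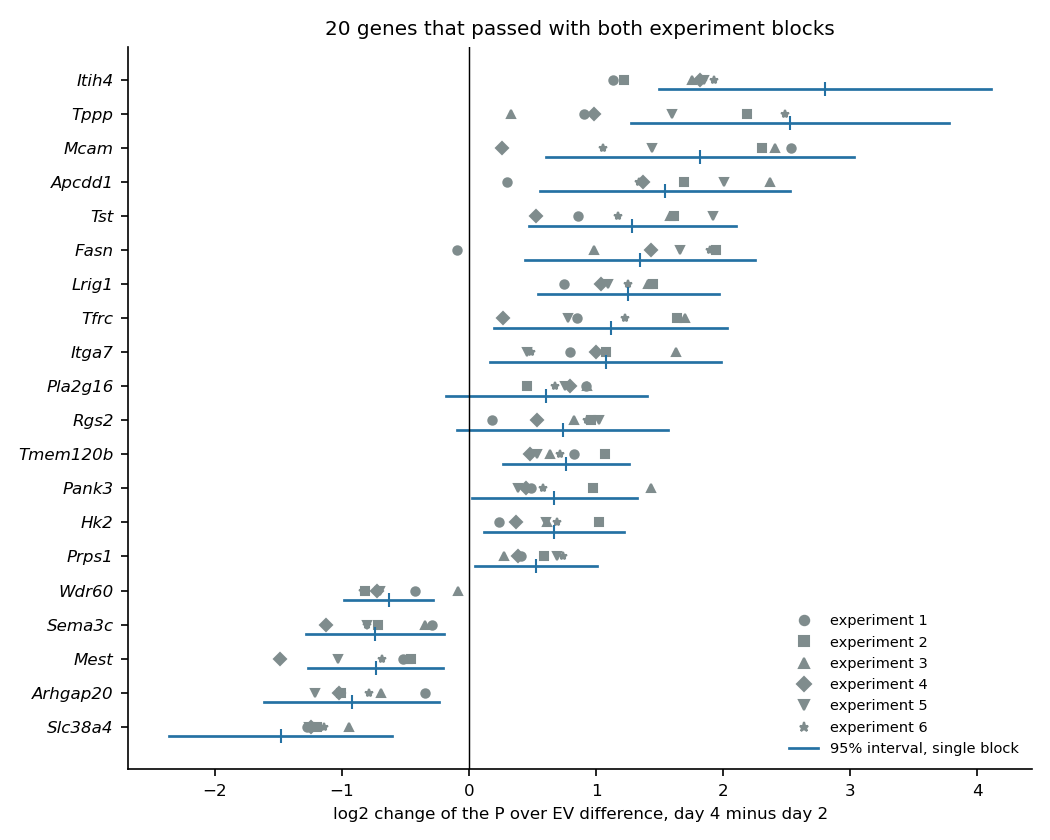
Log2 change of the P over EV difference, day 4 minus day 2, for the 20 genes called with both experiment blocks, as 6 experiments (grey, from CPM plus 0.5) and as the estimate of the single block with its 95% interval (blue). Fasn is the only gene with an experiment on the other side of 0, and the 6 values of Slc38a4 and Pla2g16 lie closest together.

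No member of the lists outside metabolism passed. The shares over all genes tested were 53.8% positive and 3.08% under an unadjusted 0.05. Cell cycle genes had 23 of 28 negative and a median of -0.11, with 0 under an unadjusted 0.05, and the list was lower on day 4 than on day 2 within P (median log2 -1.01) and within EV (-0.83). Interferon response genes had 23 of 29 negative and a median of -0.12. Its single member under an unadjusted 0.05 was Ifit1bl1, with log2 differences of -0.93 on day 4 and -2.34 on day 2. Unfolded protein and integrated stress response genes had 19 of 20 positive and a median of 0.16, with Dnajb9, Xbp1 and Pdia6 under an unadjusted 0.05. Antioxidant genes of the NRF2 pathway had 13 of 13 positive and a median of 0.19. Collagen and matrix genes (18 of 31 positive, median 0.03) and preadipocyte and fibroblast genes (7 of 17 positive, median -0.11) were mixed. Of the 13 skeletal muscle markers 4 were tested, 3 of them positive, with a median of 0.36. Des, an intermediate filament of muscle, had folds of 4.00 on day 4 and 1.16 on day 2 (unadjusted p = 0.000857). The 13 skeletal muscle markers summed to 4.57 to 42.7 CPM in P on day 4, 2.03 to 46.0 CPM in EV on day 4, 3.37 to 39.3 CPM in P on day 2 and 2.96 to 37.5 CPM in EV on day 2, with 7 of 13 never reaching 10 counts. Their part in the result was not tested.

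Values by experiment used log2 of CPM plus 0.5, which damps genes near 0 in EV. The fit and the values by experiment can differ in size or in sign, for such genes and for others. The cause was not tested. Cd36, with EV medians of 2.58 CPM on day 4 and 2.56 CPM on day 2, had a fitted change of 0.05 with the single block. With both blocks it was 0.79, and the values by experiment were positive in 6 of 6, from 0.30 to 1.89. In sign, Adipoq had a fitted change of -0.19 and 4 of 6 positive, Cidec -0.96 and 4 of 6, and Prdm16 -0.63 and 5 of 6.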

How the data were processed

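The deposited table holds raw counts per Ensembl gene for 53801 genes, and the values are counts as the authors deposited them. The submitters' processing notes name edgeR 3.22.0, STAR 2.5.3a, featureCounts 1.5.2 and the build mm10 (GRCm38). The kit is stranded per the labels' protocols, and the strand setting of the counting, the annotation release and the handling of reads with several matches are not given in the sources used here, so overlapping genes and near-identical copies are uncertain. Symbols and positions came from GENCODE M21 (GRCm38), which lacked 181 identifiers, 25 of them among the genes tested.

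From these counts, filterByExpr of edgeR 4.0.16 (R 4.3.3) on the 24 libraries kept 15757 genes. TMM scaling and a quasi-likelihood fit with 4 group means and the experiment as block gave the difference of differences and both daily contrasts, all two-sided, with Benjamini-Hochberg adjustment over all genes tested at 0.05. SEs were back-calculated from the F statistic, and 95% intervals use a t quantile of 2.09. CPM were computed from the deposited counts and effective library sizes. The code was tested on simulated counts. The alternatives were other blocks, limma 3.58.1, DESeq2 1.42.0, other scalings and filters, all 51 libraries, and leaving out each experiment or library.

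The labels number the experiments, and libraries of the same experiment deviated together (median r of 0.633 over 36 pairs, lowest 0.0919, against -0.152 over 180 pairs of different experiments). The biological coefficient of variation was 0.165 with the block and 0.31 without it. With both blocks, where 5 residual degrees of freedom remained, it was 0.0976. Replicates of a group come from separate experiments, and no pair within a group agreed within counting noise (chi-square per degree of freedom of 24.5 or more). Counting error alone does not cover the spread between experiments.

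Genes named in the text were 18 fixed ones and, as 0 genes passed, the 5 of smallest unadjusted p in each direction with at least 5 of 6 experiments of the same sign. Genes without a symbol, or with a provisional name (Gm, Rik, ps, LOC or AF), were left out of that choice. Genes called with both blocks, and list members under an unadjusted 0.05, were named after their values were seen. The members and gene lists were chosen with earlier results of these data known. Promoter sequences are from RefSeq (GRCm38.p6).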

Additional observations from a re-analysis of the deposited data

Results flagged for a closer look

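The 6 changes by experiment of each of 71 genes, and the total counts of each of the 4 groups, were searched for a value far from the others by Dixon's criterion at 95%, which chance meets in about 5% of groups. The change of Cidec in experiment 3 was 3.69 on the log2 scale, against -1.38 to 0.403 in the other experiments. The change of Prdm16 in experiment 3 was 1.88, against -0.48 to 0.24 in the others. EV day 2 replicate 1 had total counts of 71.1 M, against 11.3 to 22.5 M in the other EV libraries of day 2. Without experiment 3 the fitted change of Cidec was -1.53.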

How the results depend on the processing

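Leaving out an experiment or a library gave 0 to 1 gene called higher and 0 called lower for the change, 637 to 1803 genes between P and EV on day 2, and 1177 to 2454 on day 4. Without the filter the change had 119 genes higher and 41 lower, 154 of these 160 being genes of the filtered table. With both blocks, added after seeing the data, it had 15 higher and 5 lower. That replicate block without experiments 1, 2, 3, 4, 5 and 6 gave 13, 2, 2, 8, 2 and 2 higher, and without 1, 2, 3, 4 and 6 gave 4, 1, 7, 4 and 1 lower. No other block changed the call of 0.

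The day 2 and day 4 counts were 471 and 933 with no replicate block, and 2764 and 3795 with a replicate block by experiment and day. With all 51 libraries the day 2 count was 934, and with these and no replicate block the counts were 483 and 916. By limma on differences within experiments the day 2 count was 982.

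Signs turned for small or uncertain changes, and the cause was not tested. Cd36 was -0.059 with no replicate block and -0.094 with all 51 libraries and no replicate block. Adipoq was 0.20 by experiment and day, 0.51 by experiment and transfection, 0.76 by limma and 0.26 with both blocks, and in that replicate block 0.54, 0.61, 0.12, 0.089, 0.15 and 0.16 without experiments 1 to 6. Lipe was 0.039, 0.066, 0.087 and 0.035 under these 4 settings, and with both blocks 0.21, 0.036, 0.040 and 0.18 without experiments 1, 2, 5 and 6. Prdm16 was 0.31 by limma and 0.26 with both blocks without experiment 1. Cox8b was 0.53 by limma, and all 6 experiments were positive, while edgeR's fitted value was negative. EV on day 2 was at 0, so that value depends on the prior count and is no measure of the change. P over EV of Ppargc1a on day 4 was -0.038 by total counts and -0.00538 with all 51 libraries and no replicate block. With experiments or libraries left out, changes ran from -0.13 to 0.88 for Fabp4, -0.56 to 0.54 for Adipoq, -1.37 to 0.60 for Plin1, -1.53 to 0.61 for Cidec, -0.33 to 0.33 for Lipe and -0.43 to 0.58 for Cd36, and P over EV of Ppargc1a on day 4 from -0.10 to 0.13. The change of Pparg ran from -0.45 to -0.15.

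The median SE of the change was 0.187 on the log2 scale over all genes tested with the single block, and 0.123 with both blocks. Genes with few counts in EV, such as Cfd and Retn, have intervals too wide to place the change.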
